A study of Sus scrofa domesticus with 34 samples.

Results

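The genes described here are 10 pig genes that form 5 isoform pairs of enzymes of energy metabolism, out of 31907 genes in the count files and 15029 with a symbol. They were chosen by symbol and looked up by Ensembl identifier. Each pair holds a form typical of skeletal muscle and a form typical of brain: CKM and CKB, ENO3 and ENO2, PYGM and PYGB, ALDOA and ALDOC, and LDHA and LDHB. All 10 identifiers are in every file. The main measure is the log2 ratio of the counts of the muscle form to those of the brain form within a library, with 0.5 counts added to each.

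The libraries come from 34 pigs, 18 females and 16 castrated males, and each is labelled as muscle. RNA was sequenced with QuantSeq, which counts 1 fragment at the 3′ end of each polyadenylated transcript, so that levels do not scale with transcript length. Levels still depend on which reads were assigned to a gene. Ratios and fold values between genes are therefore ratios of counts and not calibrated ratios of transcripts. The pigs ate 1 of 4 diets, with doses given per kg of feed for the grower and then the finisher phase. Cholecalciferol at 2000 and then 1500 IU was the standard diet, which served as control (n = 8). Raising both doses, to 3000 and then 2500 IU, gave the increased diet (n = 10). For the combination diet (n = 8), 25(OH)D was added at 1000 IU in either phase to the cholecalciferol of the standard diet. In the 25(OH)D diet (n = 8) the 2000 and 1500 IU of the standard diet were replaced by as many IU of 25(OH)D. Cholecalciferol is vitamin D3. Calcidiol, abbreviated 25(OH)D, carries an additional hydroxyl group. The sources used here give neither the age of the pigs nor the muscle sampled. Since the series text counts individuals per diet, each library was taken as 1 animal. The tests set differences against the spread among libraries.

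Muscle and brain meet fast changes in energy demand with the same reactions but largely with different gene products. Creatine kinase moves phosphate between creatine and ATP, and its cytosolic subunits are M (CKM) and B (CKB). Enolase carries out a late step of glycolysis, with a beta form in muscle (ENO3) and a gamma form in neurons (ENO2). Glycogen phosphorylase releases glucose units from glycogen, with a muscle form (PYGM) and a brain form (PYGB), and the brain form is also made in other tissues. Aldolase A (ALDOA) is abundant in muscle, and aldolase C (ALDOC) is made in brain, in astrocytes and Purkinje cells among others. Lactate dehydrogenase joins A subunits (LDHA), which prevail in glycolytic muscle, and B subunits (LDHB), which prevail in heart and are common in neurons. In bulk tissue such ratios move with the mix of cells as well as with regulation inside a cell: fewer cells of a type and less RNA per cell cannot be told apart.

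Total gene counts ran from 1.34 to 30.4 M (mega) per library, with a median of 6.67 M. The files carry numbers, of which the sources used here do not state the meaning, and depth fell into 3 runs of these numbers. Numbers 1 to 24 had 4.08 to 13.2 M counts, numbers 25 to 29 had 16.8 to 30.4 M, and numbers 30 to 34 had 1.34 to 2.69 M. In the last run were 4 libraries of the combination diet, 1 of the 25(OH)D diet and none of the other diets. Levels are given as CPM, a gene's counts scaled to a common library total. Markers of brain cells were abundant in all 34 libraries, which goes against the label. The neuron list (11 of 11 measured genes) averaged 7.86 to 8.87 on the log2 CPM scale. The skeletal muscle list (15 of 16) averaged 3.90 to 6.27. Of 25 listed muscle genes 16 had an identifier, and of 12 listed neuron genes 11 had one. The list means depend on which genes were measured, so they do not rank muscle against brain transcripts. The myelin gene MBP stood at 1314 to 8483 CPM, the astrocyte gene GFAP at 739 to 4637 CPM and the neuronal gene SNAP25 at 369 to 3008 CPM. Skeletal alpha-actin, ACTA1, stood at 482 to 4026 CPM and the fast troponin C gene TNNC2 at 322 to 1880 CPM. Median CPM was 1322 for ACTA1 and 836 for TNNC2, beside 2983 for MBP, 1118 for GFAP and 1301 for SNAP25. The libraries are therefore called by diet below, without a tissue name.

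In 3 of the 4 pairs that could be measured, the brain form had more counts than the muscle form in nearly all libraries. CKB ranged from 604 to 1140 CPM with a median of 786, and CKM from 41.1 to 781 CPM with a median of 298. CKM exceeded CKB in 1 of 34 libraries. The gap was wider for enolase: ENO2 ranged from 602 to 1220 CPM with a median of 796, and ENO3 from 7.24 to 42.5 CPM with a median of 16.8. PYGB ranged from 71.1 to 226 CPM with a median of 125, and PYGM from 29.3 to 138 CPM with a median of 65.3. Lactate dehydrogenase was the exception, with LDHA at 20.0 to 62.2 CPM (median 35.6) above LDHB at 5.17 to 23.6 CPM (median 13.1) in all 34 libraries. By median CPM the order was ENO2, CKB, CKM, PYGB, PYGM, LDHA, ENO3 and LDHB. The top neighbours ENO2 and CKB overlapped over nearly their whole range, and so did ENO3 and LDHB over most of theirs. The reference table of RefSeq genes lists 2 loci named LDHB and 1 for each other member, and reads that align to more than 1 place were not counted for any gene, so the level of LDHB is uncertain.

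**Figure D1:**
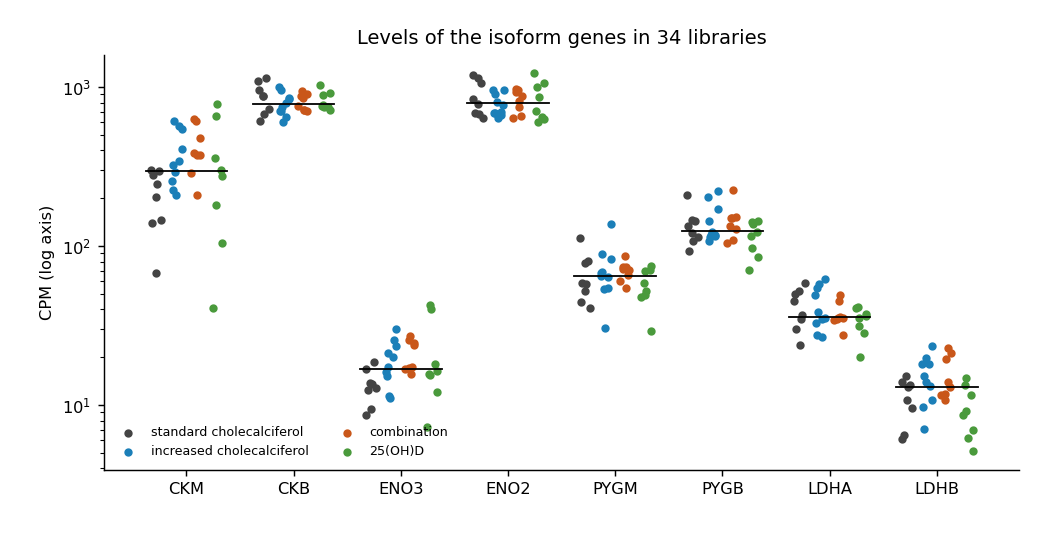
CPM (log axis) of the 8 measured isoform genes in each of 34 libraries, 1 point per library, coloured by diet, with a black line at the median over all libraries. CKB and ENO2 form narrow bands near 786 and 796 CPM, and CKM spreads from 41.1 to 781 CPM.

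The aldolase pair could not be described. ALDOA had 0 counts in each of the 34 libraries. ALDOC had 57 counts over all libraries, 0 counts in 17 of them and at most 10 in any. A count of 0 allows a level of up to 3 counts, which is 0.0988 to 2.24 CPM depending on the depth of the library (counting error only). Both genes failed the filter on low counts, so 8 of the 10 genes were tested and no aldolase ratio was formed. Other genes that cells of every kind use were near 0 in these files as well: GAPDH was at 0 in 21 libraries and reached 0.839 CPM at most, and PGAM1 was at 0 in 21 libraries and reached 1.87 CPM. Reads aligned to more than 1 place made up 11.2 to 20.7% of a file and were not assigned to genes. Their part in these zeros was not tested.

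The 4 ratios differed in how far they spread over libraries and in which form moved. The log2 CKM/CKB ratio ran from -4.65 to 0.05 with a median of -1.39, so that CKB exceeded CKM 2.62-fold at the median and 25.0-fold at the lowest. Its SD over 34 libraries was 0.98, against a median counting SD of 0.04. The spread lay in the muscle form: the SD of log2 CPM was 0.92 for CKM and 0.23 for CKB, and the 2 levels were not related over libraries (r = -0.11). ENO3/ENO2 ran from -7.38 to -4.42 with a median of -5.57 (SD 0.64), which is a 47.4-fold excess of ENO2 at the median. Here too the muscle form spread more (SD 0.57 for ENO3 and 0.30 for ENO2, r = 0.03). PYGM/PYGB was the tightest ratio, from -1.99 to -0.36 with a median of -0.99 (SD 0.35), and its 2 genes moved together (r = 0.66). LDHA/LDHB ran from 0.71 to 3.03 with a median of 1.56 (SD 0.53), and there the B form spread more (SD 0.38 for LDHA and 0.57 for LDHB, r = 0.43). The counting SD of this last ratio had a median of 0.20, because LDHB counts were low. The r values between the forms of a pair are given as descriptions.

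The same 2 libraries held the ends of the creatine kinase and enolase ratios. In 25(OH)D replicate 3, CKM was at 41.1 CPM and CKB at 1030 CPM, ENO3 at 7.24 CPM and ENO2 at 1220 CPM. In 25(OH)D replicate 1, CKM was at 781 CPM and CKB at 755 CPM, ENO3 at 40.2 CPM and ENO2 at 862 CPM. These 2 pigs ate the same diet and were both castrated males. They did not stand at the ends of the other ratios: PYGM/PYGB was -0.56 in replicate 3 and -1.40 in replicate 1, and LDHA/LDHB was 2.22 and 1.67.

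Over all libraries CKM/CKB and ENO3/ENO2 rose and fell together. Pearson's r was 0.85 and Spearman's rho 0.78 (n = 34, permutation adjusted p = 6e-05 for each, over 6 correlations between ratios, the smallest the permutations can give). The relation was r = 0.88 within file numbers 1 to 24 (n = 24) and r = 0.74 without the 2 libraries farthest from the median of ENO3/ENO2. PYGM/PYGB was not related to either (r = 0.10 and 0.08, adjusted p = 0.640 for both, rho 0.20 and 0.21). LDHA/LDHB ran opposite to CKM/CKB (r = -0.46, rho = -0.48, adjusted p = 0.0178 and 0.0132) and to ENO3/ENO2 (r = -0.42, rho = -0.41, adjusted p = 0.028 and 0.032). Without the 2 libraries farthest from the median of LDHA/LDHB, both came to r = -0.35 and no longer passed (adjusted p = 0.0996). Within file numbers 1 to 24 they were r = -0.43 and -0.41 and did not pass either (permutation adjusted p = 0.0953 for both). The ratios share no gene, but they come from the same libraries.

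**Figure D2:**
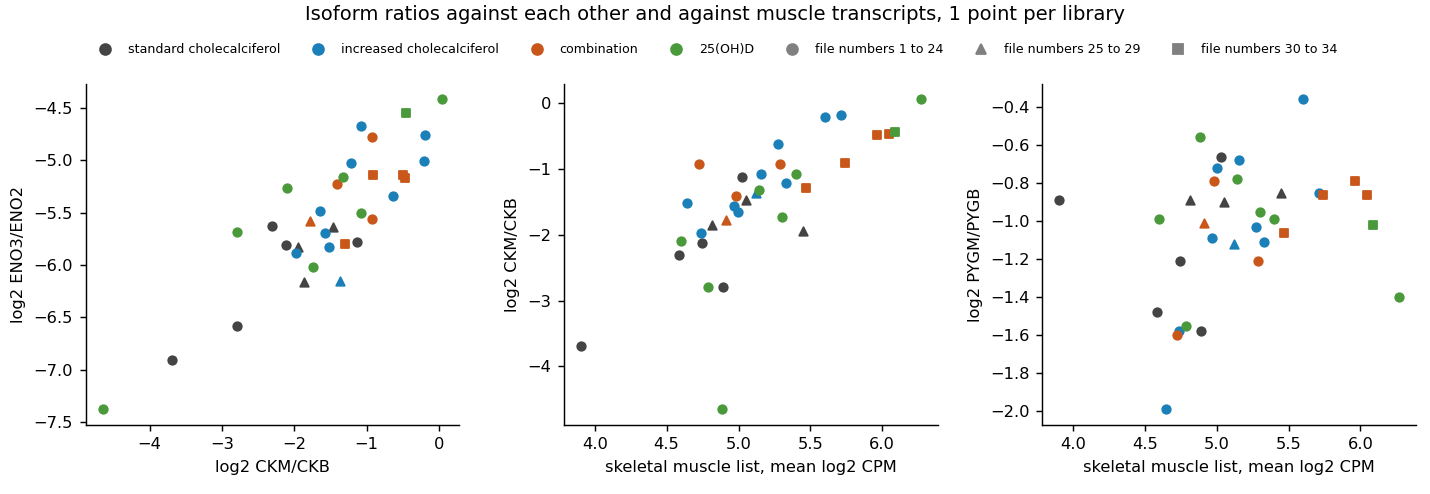
Left, log2 ENO3/ENO2 against log2 CKM/CKB; middle and right, log2 CKM/CKB and log2 PYGM/PYGB against the mean log2 CPM of the skeletal muscle list. Each point is 1 of 34 libraries, coloured by diet and shaped by file number. The first 2 panels rise together (r = 0.85 and 0.73), and PYGM/PYGB shows a weaker slope (r = 0.28).

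The muscle forms were next set against lists of marker genes that hold none of the 10 enzymes. CKM and ENO3 followed the skeletal muscle list, which includes ACTA1, the fast troponins and nebulin: r was 0.81 (rho 0.85) for CKM and 0.82 (rho 0.76) for ENO3, with a permutation adjusted p of 0.00036 for each over 72 correlations. Over all 34 libraries PYGM did not pass with that list (r = 0.26, rho = 0.37, adjusted p = 0.35), and LDHA had a negative value that did not pass (r = -0.38, rho = -0.54, adjusted p = 0.102; the adjusted p for rho was 0.00705). The brain forms CKB, ENO2, PYGB and LDHB stood between r = -0.07 and 0.03 with it. The ratio CKM/CKB had r = 0.73 and rho = 0.79 with the muscle list (adjusted p = 0.00036 over 36 correlations) and ENO3/ENO2 had r = 0.65 and rho = 0.62 (adjusted p = 0.0009 and 0.00288). Within file numbers 1 to 24 the 2 ratios had r = 0.72 and 0.66. Without the 2 libraries farthest from the median of the muscle list they had r = 0.64 and 0.51. Leaving out these 2 libraries also brought other values with the muscle list past the threshold: PYGM/PYGB at r = 0.48 (adjusted p = 0.0418), LDHA/LDHB at r = -0.46 (adjusted p = 0.0466), PYGM at r = 0.44 (adjusted p = 0.0481) and LDHA at r = -0.55 (adjusted p = 0.0102). Within file numbers 1 to 24 these 4 did not pass (r = 0.23, -0.14, 0.21 and -0.41). With the liver list CKM passed by rho (0.46, permutation adjusted p = 0.0245) but not by r (0.37, adjusted p = 0.108). Without the 2 libraries farthest from the median of the liver list, CKM, ENO3, CKM/CKB and ENO3/ENO2 passed with it (r = 0.56, 0.44, 0.54 and 0.46). Within file numbers 1 to 24 they did not (r = 0.43, 0.27, 0.46 and 0.39).

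The other members differed in which lists of brain genes they rose or fell with, and CKB and ENO2 did not pass with the neuron list (r = 0.14 and 0.26). LDHA and LDHB both rose with the neuron list (r = 0.56 and 0.58, rho = 0.58 for both, adjusted p = 0.0036 and 0.00206), and their r within file numbers 1 to 24 was 0.59 and 0.66. PYGB rose with the cerebellum list, which includes CBLN1 and NEUROD1 (r = 0.67, rho = 0.57, adjusted p = 0.00048), and fell with the forebrain list, which includes TBR1 (r = -0.65, rho = -0.54, adjusted p = 0.0009). PYGM showed the same signs, r = 0.52 with the cerebellum list (rho = 0.54, adjusted p = 0.00576) and r = -0.45 with the forebrain list (rho = -0.49, adjusted p = 0.0412). Within file numbers 1 to 24, PYGB kept r = 0.66 and -0.63. PYGM had r = 0.42 and -0.42 there and did not pass (permutation adjusted p = 0.174 for both). LDHA had the opposite signs over all 34 libraries, with rho = -0.46 for the cerebellum list and 0.46 for the forebrain list (permutation adjusted p = 0.0245 for both). By r it did not pass (-0.4 and 0.37, adjusted p = 0.0861 and 0.108). PYGB was also lower where astrocyte (r = -0.60), microglia (r = -0.56) and oligodendrocyte (r = -0.54) genes were higher. ENO2 was lower where oligodendrocyte (r = -0.61) and endothelium (r = -0.58) genes were higher, and CKB where endothelium genes were higher (r = -0.50). Levels are shares of a library, so a rise of one cell type's genes lowers the share of others. Of the 72 correlations, 14 passed by r and 20 by rho, and 10 of the 14 also passed within file numbers 1 to 24. Those that did not were PYGM with the cerebellum and forebrain lists, PYGB with the oligodendrocyte list and CKB with the endothelium list. Of the 36 correlations of ratios with lists, 3 passed. Besides CKM/CKB and ENO3/ENO2 with the muscle list, PYGM/PYGB fell with the neuron list (r = -0.49, rho = -0.57, permutation adjusted p = 0.0386 and 0.006). Within file numbers 1 to 24 that value was r = -0.52 and did not pass (permutation adjusted p = 0.124).

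**Figure D3:**
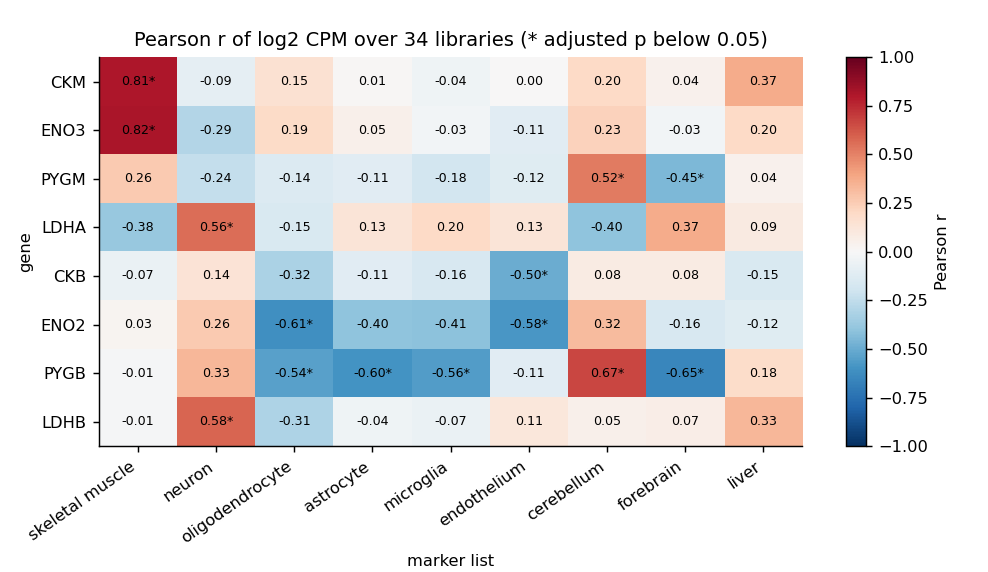
Pearson r over 34 libraries between the log2 CPM of each isoform gene (rows, muscle forms above brain forms) and the mean log2 CPM of each marker list (columns), with stars for adjusted p below 0.05. CKM and ENO3 are high with the muscle list (0.81 and 0.82), and PYGM and PYGB with the cerebellum list (0.52 and 0.67).

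Among all 11126 genes with a symbol outside the pairs, the genes most like CKM/CKB over the 34 libraries were CKMT2 (r = 0.96), MYL3 (0.94), SERF2 (0.93), ACTB (0.91) and TMOD4 (0.88). CKMT2 is the sarcomeric mitochondrial creatine kinase, MYL3 a slow and cardiac myosin light chain and TMOD4 a skeletal muscle tropomodulin. The central 95% of genes lay between r = -0.52 and 0.52. CKMT2 (0.83) and MYL3 (0.83) also led for ENO3/ENO2, ahead of KCNJ2 (0.81), YBX3 (0.81) and MYL2 (0.79), where the central 95% lay between -0.51 and 0.49. PLEKHB2 had the lowest value for both ratios (r = -0.79 and -0.84), followed by SLC35F6 and CASTOR2 (-0.74 each), TAF6 (-0.73) and TMEM234 (-0.72) for CKM/CKB and by NDN (-0.73), CAMK1 and PCDHAC2 (-0.72 each) and TUBG1 (-0.71) for ENO3/ENO2. The lists for the other ratios held no sarcomere gene. The genes most like PYGM/PYGB were TUBB2B (0.69), a neuronal beta-tubulin, DCAF7 and AP5Z1 (0.66 each), BCKDHA (0.61) and MMP16 (0.60), and those least like it were SEC62 (-0.68), GABARAPL1 (-0.67), RNF14 (-0.64), NECAP1 and RRP15 (-0.62 each). Those most like LDHA/LDHB were ABI2 (0.72), UBE3B, ANK2 and PIP5K1A (0.71 each) and HIGD1A (0.69), and those least like it were MNAT1 (-0.77), MIER1 (-0.76), NR3C1, the glucocorticoid receptor, DDX42 and PABPC1 (-0.74 each). These genes were ranked on the same libraries, so their r is a description.

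The first diet comparison asks what a higher dose of cholecalciferol goes with. CKM ranged from 68.1 to 302 CPM (median 224) on the standard diet and from 211 to 613 CPM (median 334) on the increased diet. The ranges overlap, and 4 pigs of the standard diet lay below every pig of the increased diet. CKB ranged from 610 to 1140 CPM (median 878) and from 604 to 1004 CPM (median 773). The log2 CKM/CKB ratio was -2.16 ± 0.79 (SD, n = 8) on the standard diet and -1.14 ± 0.61 (SD, n = 10) on the increased diet, a difference of 1.02 (SE 0.34, two-sided exact permutation p = 0.00491, adjusted p = 0.0262 over 16 ratio comparisons). ENO3 ranged from 8.71 to 18.7 CPM (median 13.2) and from 11.1 to 30.2 CPM (median 18.8), and ENO2 from 641 to 1200 CPM (median 810) and from 638 to 962 CPM (median 733). The ENO3/ENO2 ratio was -6.04 ± 0.47 (SD, n = 8) and -5.39 ± 0.51 (SD, n = 10), higher by 0.66 on the increased diet (SE 0.23, exact permutation p = 0.0122, adjusted p = 0.0487). PYGM/PYGB differed by 0.00 (SE 0.19, exact permutation p = 0.988), and LDHA/LDHB was lower by 0.42 without passing (-0.42, SE 0.25, exact permutation p = 0.0941, adjusted p = 0.251). Without standard replicate 1 or 3, the CKM/CKB difference was 0.81 or 0.94 with an adjusted exact permutation p of 0.0547 or 0.0601, and most single removals put ENO3/ENO2 above 0.05 (0.53 to 0.74 on the log2 scale). The pairs were chosen with earlier results of these data known, so these p-values are no independent support.

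The second comparison asks what 1000 IU of 25(OH)D added to the control dose goes with. CKM ranged from 209 to 635 CPM (median 379) on the combination diet and ENO3 from 15.7 to 27.2 CPM (median 20.6), with CKB at 709 to 944 CPM and ENO2 at 639 to 968 CPM. The 6 lowest values of ENO3 on the standard diet lay below the lowest of the combination diet. CKM/CKB was -1.03 ± 0.45 (SD, n = 8), higher than on the standard diet by 1.14 (SE 0.32, exact permutation p = 0.00249, adjusted p = 0.0199). ENO3/ENO2 was -5.30 ± 0.32 (SD, n = 8), higher by 0.74 (SE 0.20, exact permutation p = 0.000932, adjusted p = 0.0149). PYGM/PYGB differed by 0.03 (SE 0.15). LDHA/LDHB was 1.29 ± 0.32 (SD, n = 8) against 1.92 ± 0.64 (SD, n = 8), a difference of -0.64 that did not pass after adjustment (SE 0.25, exact permutation p = 0.0224, adjusted p = 0.0716). Neither of the passing differences was lost when any 1 library was left out.

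CKM/CKB and the skeletal muscle list also differed between runs of file numbers, which were spread unevenly over the diets. CKM/CKB averaged -0.72 in file numbers 30 to 34, -1.62 in 1 to 24 and -1.69 in 25 to 29. Without file numbers 30 to 34 the combination stood above the standard diet by 0.90 in CKM/CKB (exact permutation p = 0.0566, adjusted p = 0.226) and by 0.76 in ENO3/ENO2 (exact permutation p = 0.0162, adjusted p = 0.0862). Within file numbers 1 to 24 (3 combination and 5 standard libraries) the differences were 1.32 and 0.95, with exact permutation p = 0.0714 and 0.0536. For the increased diet (9 libraries there) they were 1.29 and 0.84 (exact permutation p = 0.00899 and 0.012, adjusted p = 0.0959 for both). The skeletal muscle list averaged 4.81 on the standard diet, 5.15 on the increased, 5.39 on the combination and 5.31 on the 25(OH)D diet (log2 CPM), and 5.86 in file numbers 30 to 34 against 5.04 in 1 to 24. The part of the muscle transcripts in the ratio differences was not tested.

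**Figure D4:**
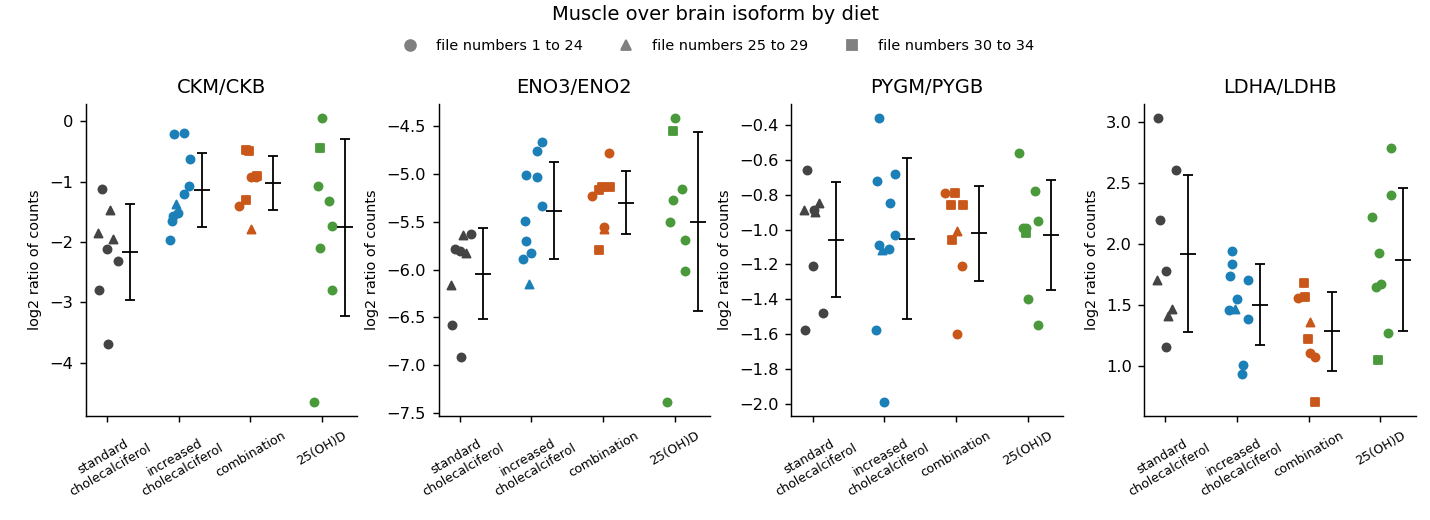
Log2 ratio of muscle to brain form in each library by diet, for 4 pairs, with the mean and SD of each diet as bars and the marker shape giving the run of file numbers. CKM/CKB and ENO3/ENO2 are higher on the increased (-1.14 and -5.39) and combination diets (-1.03 and -5.30) than on the standard diet (-2.16 and -6.04), and PYGM/PYGB is level across diets.

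The third comparison sets 25(OH)D against cholecalciferol at the same control dose. These molecules differ by 1 hydroxyl group. CKM ranged from 41.1 to 781 CPM on the 25(OH)D diet (median 288) and ENO3 from 7.24 to 42.5 CPM (median 16.0), so that this diet held both the lowest and the highest values of each. CKM/CKB was -1.76 ± 1.47 (SD, n = 8), higher than on the standard diet by 0.40 (SE 0.59, exact permutation p = 0.508), and ENO3/ENO2 was -5.50 ± 0.93 (SD, n = 8), higher by 0.55 (SE 0.37, exact permutation p = 0.165, adjusted p = 0.349). One library decided the second value: without 25(OH)D replicate 3 the ENO3/ENO2 difference was 0.81 (exact permutation adjusted p = 0.0342), and that of CKM/CKB was 0.82 (adjusted p = 0.193). Without 25(OH)D replicate 1, which held the highest ratios, the differences were 0.39 in ENO3/ENO2 and 0.15 in CKM/CKB, and without file numbers 30 to 34 CKM/CKB differed by 0.22. PYGM/PYGB differed by 0.03 (SE 0.16) and LDHA/LDHB by -0.05 (SE 0.31). The fourth comparison sets the molecules against each other as the added 1000 IU. All 4 ratios were close: the combination differed from the increased diet by 0.11 (SE 0.25) in CKM/CKB, 0.09 (SE 0.20) in ENO3/ENO2, 0.03 (SE 0.18) in PYGM/PYGB and -0.22 (SE 0.15) in LDHA/LDHB, with exact permutation p of 0.67, 0.678, 0.87 and 0.175. The first 3 comparisons share the same 8 control libraries, so their values are given side by side and not as separate support.

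Gene by gene, with a test over all 13974 genes (edgeR quasi-likelihood, diet and sex in the model, Benjamini-Hochberg adjustment), none of the 8 tested members passed 0.05 in any diet comparison, and no gene of the whole table did (0%); DESeq2 and limma-voom also called none. On the increased diet CKM stood at a log2 fold change of 0.79 (SE 0.34, edgeR p = 0.0276, adjusted p = 0.623) and ENO3 at 0.46 (SE 0.22, adjusted p = 0.638), while CKB stood at -0.19 (SE 0.11) and ENO2 at -0.21 (SE 0.14). At an unadjusted edgeR p below 0.05 that was 2 of 8 members, where 7.77% of all genes reached it. On the combination diet CKM stood at 0.92 (SE 0.36, edgeR adjusted p = 0.999) and ENO3 at 0.59 (SE 0.24, adjusted p = 0.999), with CKB at -0.14 and ENO2 at -0.12. Again 2 of 8 had an unadjusted p below 0.05, against 4.34% of all genes. With the run of file numbers in the model these values came to 0.45 for CKM (edgeR p = 0.276) and 0.26 for ENO3 (edgeR p = 0.333), and without file numbers 30 to 34 to 0.46 and 0.36 (edgeR p = 0.291 and 0.193). On the 25(OH)D diet ENO3 stood at 0.64 (SE 0.24) and CKM at 0.67 (SE 0.36), CKB at 0.01 and ENO2 at 0.03, and 1 of 8 had an unadjusted p below 0.05, against 3.23%. By limma-voom ENO3 stood there at 0.41 (p = 0.0755) and CKM at 0.37 (p = 0.331). The remaining 4 members, PYGM, LDHA, PYGB and LDHB, lay between -0.07 and 0.37, between -0.22 and 0.46, and between -0.23 and -0.15 in the 3 comparisons, and the highest value in the first 2 was that of LDHB. The median over the 8 members was 0.06, 0.06 and -0.07, beside 0.01, 0.00 and -0.01 over all genes.

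Between the combination and the increased diet, 0 of 8 members had an unadjusted edgeR p below 0.05, against 4.14% of genes. The 95% interval ran from -0.54 to 0.82 for CKM, from -0.33 to 0.59 for ENO3, from -0.17 to 0.27 for CKB and from -0.19 to 0.36 for ENO2. For 25(OH)D against cholecalciferol at the control dose it ran from -0.05 to 1.39 for CKM and from 0.16 to 1.11 for ENO3. The intervals of the muscle forms are wide, and they do not show that the molecules act alike.

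**Figure D5:**
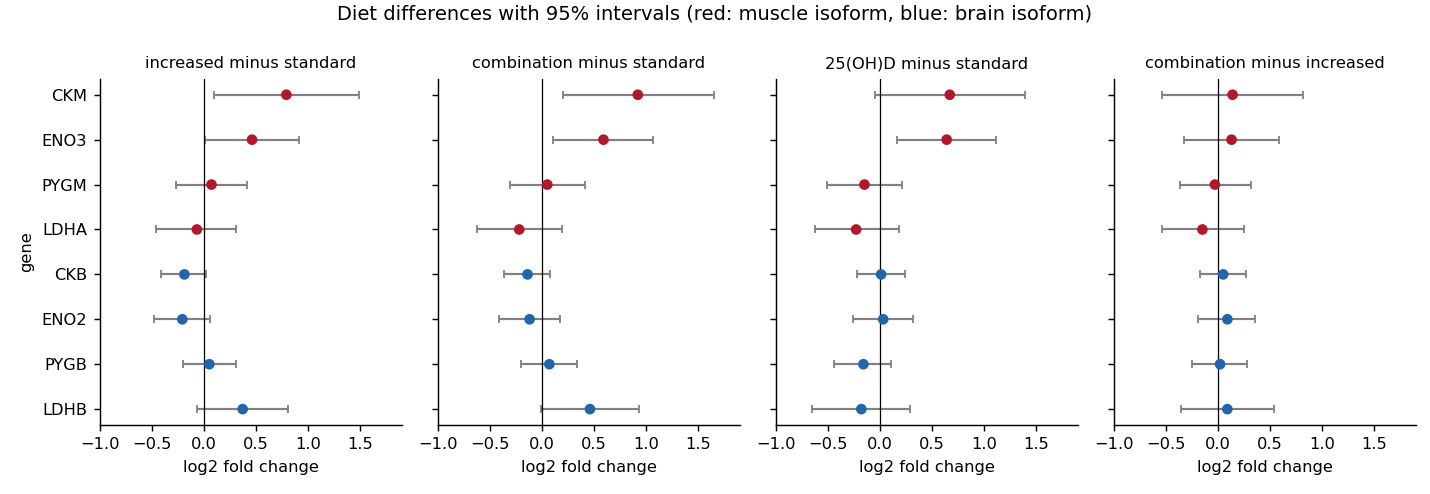
Log2 fold change (edgeR) of 8 isoform genes in 4 diet comparisons, with 95% intervals, muscle forms in red and brain forms in blue. CKM and ENO3 lie to the right of 0 in the 3 comparisons with the standard diet (0.79 and 0.46, 0.92 and 0.59, 0.67 and 0.64), and no gene passed after adjustment.

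No difference between the sexes was detected in the isoforms. CKM/CKB was -1.47 ± 0.83 (SD, n = 18) in females and -1.53 ± 1.14 (SD, n = 16) in castrated males, and the 4 ratios differed by -0.06 to 0.05 (permutation test, 100000 resamples, adjusted p = 0.935 for each). None of the 8 members passed the edgeR test between sexes, where 0.0787% of genes did, and none had an unadjusted p below 0.05, against 6.58% of genes. The members' fold changes lay between -0.02 and 0.23. No diet difference of a member was found to depend on sex (edgeR interaction, unadjusted p of 0.321 or more, 0% of genes called). Within females the CKM/CKB differences from the standard diet were 1.31 (increased) and 1.47 (combination), and within castrated males 0.76 and 0.80. For the 25(OH)D diet they were 1.15 within females (exact permutation p = 0.0571) and -0.34 within castrated males (exact permutation p = 0.771). There was no adjusted exact permutation p below 0.05 in either sex.

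The rest of the pathway was read from 4 lists of glycogen, glycolysis, lactate and pyruvate, and creatine and adenylate genes. Of 60 listed genes 46 were tested, and none passed the edgeR test in any diet comparison. At an unadjusted p below 0.05 there were 3 of 46 on the increased diet (7.77% of all genes), 4 on the combination (4.34%) and 2 on the 25(OH)D diet (3.23%) against the standard diet, and 2 between the combination and the increased diet (4.14%). The median fold change over the 46 genes lay between -0.04 and 0.08 in the 4 comparisons. The smallest p on the increased diet belonged to GPD2, a mitochondrial glycerol phosphate dehydrogenase (log2 fold change -0.32, SE 0.11), and to PHKA1, the muscle alpha subunit of phosphorylase kinase (0.68, SE 0.30). On the combination diet they belonged to CKMT2 (0.81, SE 0.34) and PGAM2, the muscle phosphoglycerate mutase (0.57, SE 0.26). On the 25(OH)D diet they belonged to PGAM2 (0.61, SE 0.25) and PHKG1, the muscle catalytic subunit of phosphorylase kinase (1.12, SE 0.50). Between the combination and the increased diet they belonged to PDK2, a pyruvate dehydrogenase kinase (0.68, SE 0.25), and AMPD1, the muscle AMP deaminase (0.59, SE 0.26). Between females and castrated males they belonged to PDK4, another such kinase (-0.58 in females, SE 0.19, edgeR adjusted p = 0.612), and UGP2, which makes UDP-glucose for glycogen (0.28, SE 0.11), and again none of the 46 passed, with 8 at an unadjusted p below 0.05 against 6.58% of all genes.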

How the data were processed

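Each file holds 1 library's raw counts of reads per gene, as the authors deposited them. Per the labels' protocols, RNA came from frozen tissue by Trizol and libraries from the QuantSeq 3′ forward kit. The tools named per the submitters' processing notes are TopHat, HTSeq, FastQC and DESeq2. The sources used here state no versions, genome build, annotation or strand setting, so no coordinates are printed.

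CPM use total gene counts. The SDs of log2 CPM and the r between the forms of a pair use these CPM, with 0.5 counts added and no TMM scaling. Log2 CPM used in list means and in correlations with marker lists are TMM-scaled (prior count 2). Members were tested in edgeR 4.0.16 (R 4.3.3; quasi-likelihood, TMM, expression filter by diet, diet and sex over 34 libraries; 13974 genes). Limma 3.58.1 (voom) and DESeq2 1.42.0 were alternatives. Ratios were tested by exact permutation, sex and correlations by 100000 resamples, with Benjamini-Hochberg adjustment within each family. The plan held 5 ratios; 4 could be formed, leaving 16 tests. Replicate numbers follow accession order and pair no samples. Scripts were tested on simulated data.

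Members and lists were chosen with earlier results of these data known. Named genes were the 10 members, the 2 pathway genes with the smallest p per comparison, the 5 genes most and least like each ratio, and abundant markers. Of the marker genes, 1 is not reported here by name.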

Additional observations from a re-analysis of the deposited data

Results flagged for a closer look

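In 4 of 48 sets of 1 measure in 1 diet (groups of 8 or 10), a library stood apart from the rest by Dixon's test at the 95% level, which chance would give in about 1 in 20 sets. All 4 are levels on the TMM-scaled log2 CPM scale. CKB was highest in 25(OH)D replicate 3, at 10.34, with the other 7 libraries of that diet between 9.59 and 9.78; this is the library with the lowest CKM/CKB and ENO3/ENO2 ratios. PYGM was lowest in 25(OH)D replicate 4, at 5.04, with the others between 5.74 and 6.20. PYGB was highest in standard replicate 6, at 7.47 against 6.79 to 7.09, and in combination replicate 1, at 7.70 against 6.74 to 7.16.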

How the results depend on the processing

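All values are log2 differences, and the cause of each change was not tested, also where fewer samples are named. The differences of CKM/CKB and ENO3/ENO2 on the increased and combination diets stayed above 0 in every alternative run, but their adjusted p rose above 0.05 without file numbers 30 to 34 (increased 1.02 and 0.66; combination 0.90 and 0.76) and, with fewer samples, within 1 to 24 (1.29 and 0.84; 1.32 and 0.95), within females (1.31 and 0.66; 1.47 and 0.79) and within castrated males (0.76 and 0.69; 0.80 and 0.69). File numbers 30 to 34 hold no increased or standard library, so that comparison kept its exact permutation p (0.00491 and 0.0122), and its adjusted p rose to 0.0786 and 0.0862 because the other tests of the family changed. With 5 counts added in place of 0.5, LDHA/LDHB on the combination diet passed (-0.65, exact permutation adjusted p = 0.0392).

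Differences near 0 changed sign. Without file numbers 30 to 34, PYGM/PYGB was at -0.10 for the combination against either cholecalciferol diet, LDHA/LDHB at 0.07 for 25(OH)D against standard, CKM/CKB at -0.12 for combination against increased, and between sexes CKM/CKB was at -0.07 and LDHA/LDHB at 0.01. Within file numbers 1 to 24, PYGM/PYGB was at -0.04 (combination against standard) and -0.16 (against increased), and CKM/CKB at -0.08 between sexes. Within females PYGM/PYGB was at -0.08 for the increased diet. Within castrated males it was at -0.16, -0.08 and -0.31 for combination and 25(OH)D against standard and combination against increased, and CKM/CKB was at -0.34 for 25(OH)D. By gene, combination against increased put CKM, ENO3, CKB and ENO2 at -0.41, -0.21, -0.04 and -0.08 with the run of file numbers in the model, at -0.37, -0.11, -0.09 and -0.11 without file numbers 30 to 34, and at -0.30, -0.16, -0.13 and -0.17 within 1 to 24. For 25(OH)D, CKB was at -0.08 and ENO2 at -0.06 without TMM, and ENO2 at -0.01 by limma-voom.

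Leaving out 1 library at a time gave, against standard, CKM/CKB 0.81 to 1.17 (increased) and 0.15 to 0.82 (25(OH)D), ENO3/ENO2 0.53 to 0.74 (increased) and 0.39 to 0.81 (25(OH)D), LDHA/LDHB -0.74 to -0.48 (combination; adjusted exact permutation p = 0.0315 without standard replicate 1 and 0.0462 without standard replicate 7) and -0.18 to 0.11 (25(OH)D), and PYGM/PYGB -0.07 to 0.11, -0.04 to 0.12 and -0.05 to 0.10 (increased, combination, 25(OH)D). PYGM/PYGB was at -0.07 to 0.11 for combination against increased, and for 25(OH)D CKB was at -0.10 to 0.07 and ENO2 at -0.13 to 0.10.

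Passing correlations between ratios fell from 3 to 1 within file numbers 1 to 24 and to 1 without the 2 farthest libraries. With the 2 farthest left out, those of ratios with marker lists rose from 3 to 7. The 2 libraries left out were those farthest from the median of the second ratio, or of the list, in each correlation. Genes called for combination against increased were 1, 1 and 2 with the run in the model, without file numbers 30 to 34 and within 1 to 24, none of them a member, and between sexes 18 with the run in the model, against 11. No paired analysis was possible because the labels carry no replicate numbers. Depth limits LDHB and ENO3 most, and ALDOA and ALDOC could not be tested, so no alternative was run for them.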

Other observations

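Among 7 further muscle and non-muscle isoform pairs, 5 could be formed. The log2 ratio of AMPD1, the muscle AMP deaminase, to AMPD2 ran from -2.60 to -0.14 (median -1.67) and had r = 0.86 with the skeletal muscle list over 34 libraries, 0.58 with CKM/CKB and 0.30 with PYGM/PYGB. ATP2A1 over ATP2A2, the calcium pumps of fast muscle and of heart, slow muscle and brain, ran from -9.58 to -5.15 (median -6.95), with r = 0.77, 0.58 and 0.07; ATP2A1 is itself in that list. COX6A2/COX6A1, subunits of cytochrome oxidase, had r = 0.48 with the muscle list and 0.14 with CKM/CKB. PHKA1/PHKA2 had r = -0.03 with the muscle list and 0.46 with CKM/CKB, and COX7A1/COX7A2 had r = -0.07 and -0.25. PGAM2/PGAM1 and PFKM/PFKP could not be formed, since PGAM1 and PFKP failed the filter. These values are descriptions, with no test.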
